A study of Mus musculus with 12 samples.

Results

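The genes described here mark pericytes and vascular smooth muscle, the cells that wrap the capillaries and arterioles of the pituitary gland. They are Acta2, Tagln, Myl9, Cnn1, Myh11, Des, Rgs5, Pdgfrb, Cspg4 and Mcam, chosen by gene name. The 10 genes are read by 11 probes and 29 spots, out of 30119 genes and 39429 probes on the array. Acta2 and Des each have a probe printed 10 times, and Mcam has 2 probes. RNA came from the pituitary of 12 adult female mice of the inbred strain C57BL/6J, all 2 months old. Of these, 4 ate a normal diet (control). Another 4 ate a diet deficient in vitamin D (VD) only in early life, and the last 4 ate the deficient diet only around puberty (peripubertal). The glands were minced, so a level is an average over hormone cells, vessels and all other cells, and fewer cells of a type cannot be told apart from less RNA per cell.

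Smooth muscle cells contract through alpha-actin (Acta2) and smooth muscle myosin (Myh11 heavy chain, Myl9 regulatory light chain), with transgelin (Tagln) and calponin (Cnn1) bound to the actin filaments and desmin (Des) as an intermediate filament. Many of their genes are switched on by the transcription factor SRF, which binds a CArG box, a short AT-rich core between CC and GG. Pericytes sit inside the capillary basement membrane. They are recruited by PDGF-B from endothelium through its receptor PDGFRβ (Pdgfrb), and carry the NG2 proteoglycan (Cspg4), the adhesion molecule CD146 (Mcam) and the G protein regulator Rgs5. In the pituitary the capillaries are fenestrated and carry hormone into the blood.

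The probes that the results turn on are shown by 30 of their 60 bases, 5′ to 3′, as the scanner files give them. Positions of the full probes are in mouse build mm9 per the file headers, and no genome of that build was used here. The Tagln probe lies at chr9:45738097-45738156 (minus strand), the Acta2 probe at chr19:34316060-34316119 (minus strand) and the Cnn1 probe at chr9:21913058-21913117 (plus strand). These 3 are shown from base 1 to base 30. The Mcam probes lie on the plus strand at chr9:43949385-43949444 and chr9:43950664-43950723. The second is shown from base 12 to base 41 because it holds a run of 9 TG units, in capitals, which the first does not.
Tagln probe: ctttgaaggagacccagcccagcctctaca
Acta2 probe: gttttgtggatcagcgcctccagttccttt
Cnn1 probe: acacacgcattttggttttgcagtgactgg
Mcam dim probe: atttgtagttgaagttaagtcagataagct
Mcam repeat probe: tgaggTGTGTGTGTGTGTGTGTGtatacat

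Windows of 300 bases around the gene starts (250 before, 50 after) were taken from RefSeq, mouse assembly GRCm38.p6, where 7 of the 10 genes had one. The CArG box was searched in its strict form and with 1 C or G allowed among the 6 core bases. The pattern reads the same on both strands. Of all 32851 windows searched, 1.63% held the strict form, 8.50% the relaxed form and 0.822% at least 2 boxes of either form. Acta2 (chr19:34255324-34255623, minus strand) and Myl9 (chr2:156775214-156775513, plus strand) each held 2. The windows of Cnn1, Des, Rgs5, Cspg4 and Mcam held none. Boxes are in capitals below. They begin 84 and 34 bases before the start in Acta2, both relaxed, and 161 (strict) and 99 (relaxed) bases before it in Myl9. A match is a description of the letters and not a measured binding site.
Acta2 window: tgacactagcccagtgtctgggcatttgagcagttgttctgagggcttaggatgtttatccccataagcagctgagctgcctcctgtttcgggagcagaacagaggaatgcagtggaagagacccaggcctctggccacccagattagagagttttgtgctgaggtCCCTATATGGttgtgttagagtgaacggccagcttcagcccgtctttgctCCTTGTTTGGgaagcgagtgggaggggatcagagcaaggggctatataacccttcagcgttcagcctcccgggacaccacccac
Myl9 window: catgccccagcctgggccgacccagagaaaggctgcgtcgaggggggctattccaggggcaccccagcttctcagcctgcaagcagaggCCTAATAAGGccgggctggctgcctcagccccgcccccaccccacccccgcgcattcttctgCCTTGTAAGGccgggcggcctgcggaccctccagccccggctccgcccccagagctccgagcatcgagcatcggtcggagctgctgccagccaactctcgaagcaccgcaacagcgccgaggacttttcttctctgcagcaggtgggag

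The samples shared 6 arrays, with 2 animals of the same diet on each, odd-numbered in the dye Cy3 and even-numbered in Cy5. Control arrays lay on slide 1 and all deficient arrays on slide 2, and in comparisons with control the diet cannot be told apart from the slide. Between 50.6% and 67.2% of spots per sample were well above background. The scanning software marked 1.68% to 1.90% of spots as outliers on control arrays, against 6.54% to 7.34% on early life and 3.85% to 5.08% on peripubertal arrays. The marks fell mostly on bright spots. Of these, 2.69% to 3.19% were marked on control, 12.8% to 14.3% on early life and 6.89% to 9.41% on peripubertal arrays. Of dim spots, 0.466% to 0.686% were marked over all arrays. A marked spot was not used for either animal of its array. This removed Rgs5 from all 4 early life samples, and Myl9 and the Mcam repeat probe from early life 3 and 4. Group names follow the scanner files. The authors' value table files the same 8 deficient channels under the opposite deficient group. If that table is right, every early life value below is a peripubertal one and the reverse, and the signs between the 2 deficient groups turn.

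All 8 hormone cell markers, such as Prl and Pomc, were well above background in all 12 channels. Of the 10 pericyte and smooth muscle genes, 6 were well above background in all 12 channels, Cspg4 was so in 11 and 3 were mostly at background. Des was well above background in 0 of 12 channels, Cnn1 in 2 and Myh11 in 2. The contractile side of the set thus rests on Acta2, Tagln and Myl9, since Myh11 and Cnn1, markers of mature smooth muscle, gave few readings. Probes had to be well above background in at least 4 channels to be tested, which kept 7 genes. No spot was saturated.

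**Figure D1:**
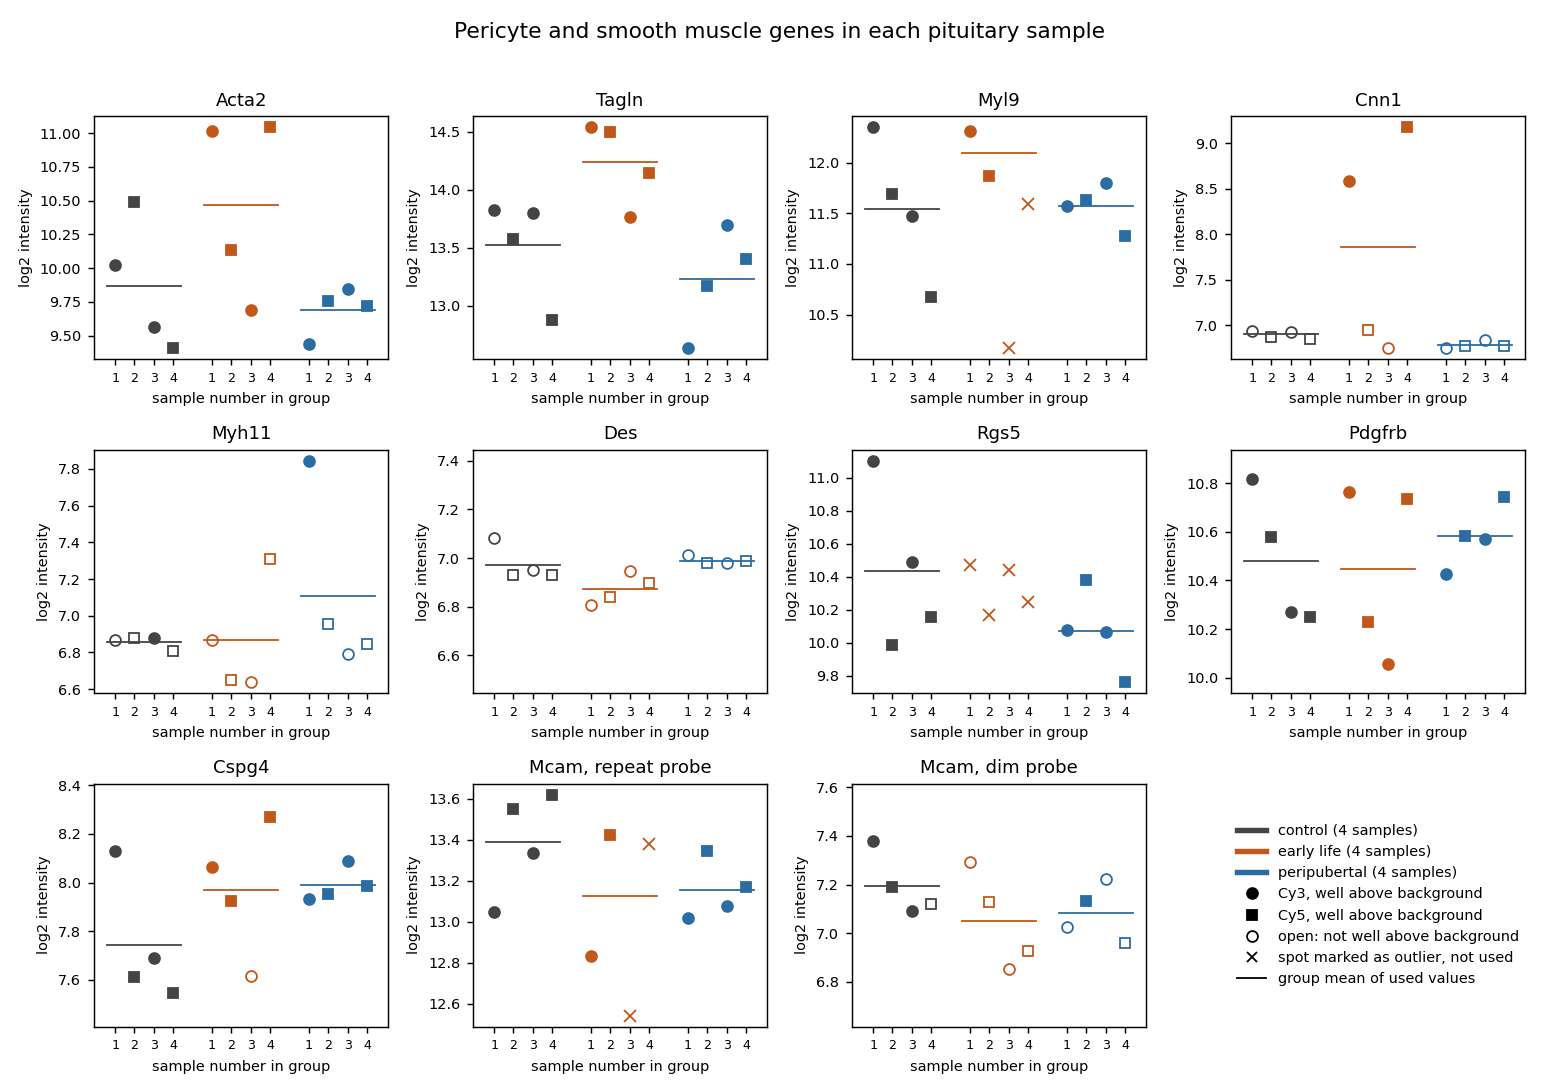
Log2 intensity (vertical axes, 1 panel per probe) of the pericyte and smooth muscle genes in each of the 12 samples, numbered within their diet group on the horizontal axes. Filled points were well above background, open points were not, crosses are outlier-marked values that were not used, and lines are group means. Early life samples 1 and 4 stand above the other 10 for Cnn1 and Acta2, and the early life and peripubertal samples of Tagln do not overlap.

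Of the contractile genes in the set, Acta2, Tagln and Myl9 had their highest mean in early life samples, Myl9 only with its marked spots left out, but no difference passed the test. Tagln, which encodes the actin-binding protein transgelin, read 14.54, 14.50, 13.77 and 14.15 on the log2 scale in early life 1 to 4. It read 13.83, 13.57, 13.80 and 12.88 in control 1 to 4, and 12.63, 13.17, 13.70 and 13.40 in peripubertal 1 to 4. The lowest early life sample thus lay above every peripubertal sample and below control 1 and 3. The early life mean was 14.24 ± 0.36 (SD, n = 4), the control mean 13.52 ± 0.44 and the peripubertal mean 13.23 ± 0.45.

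Acta2, the actin of contractile smooth muscle, read 11.01, 10.13, 9.69 and 11.04 in early life 1 to 4. It read 10.02, 10.49, 9.56 and 9.40 in control and 9.44, 9.75, 9.84 and 9.72 in peripubertal samples. Early life 1 and 4, which lie on different arrays in different dyes, were above all 10 other samples, while early life 3 was within the peripubertal range. The means were 10.47 ± 0.67 (SD, n = 4), 9.87 ± 0.49 and 9.69 ± 0.18. Each value averages 8 to 10 spots, whose SD within a channel ran from 0.23 to 0.40. Dim spots near the 10 Acta2 spots deviated by -0.28 to 0.77 from their usual level, and the part of this in the values was not tested.

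Myl9, the regulatory light chain of smooth muscle myosin, read 12.32 and 11.88 in early life 1 and 2 and had no usable spot in early life 3 and 4. It read 12.35, 11.69, 11.48 and 10.67 in control and 11.57, 11.63, 11.80 and 11.28 in peripubertal samples. Both early life values lay within the control range and above the peripubertal values. The outlier-marked spots of early life 3 and 4 would read 10.16 and 11.60. With them the early life mean would be 11.49 ± 0.93 (SD, n = 4), against 12.10 ± 0.31 (n = 2) without, so the higher early life level of Myl9 rests on which spots are used. Dim spots near the Myl9 spot deviated by 0.80 from their usual level in early life 3 and by 0.48 in peripubertal 1, and the part of this in the values was not tested.

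In numbers, Tagln differed by 0.72 on the log2 scale between early life and control (SE 0.33, limma adjusted p = 0.312), a 1.64-fold level with a 95% interval from 0.996 to 2.71. For Acta2 the difference was 0.60 (SE 0.40, adjusted p = 0.473), and for Myl9 it was 0.55 with 2 early life samples (SE 0.35, adjusted p = 0.454). Of the 6 tested genes 0 were called in limma's fit, where 0.0979% of all 18387 genes were, and 0 of them reached an unadjusted p under 0.05, as 16.2% of all genes did. Called higher were 0 of the 6 and 0.0544% of all genes, and called lower 0 and 0.0435%. No tested gene of the set had early life samples all above or all below the controls, while 7.96% of all genes had the first and 7.15% the second. The median difference of the 3 contractile genes was 0.60, against 0.03 over all genes tested.

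Between early life and peripubertal samples, compared within 1 slide, Tagln differed by 1.01 (SE 0.33, limma adjusted p = 0.155). This is a 2.02-fold level with an interval from 1.22 to 3.33 before adjustment. The groups do not overlap, as was the case in that direction for 12.4% of all genes (9.95% in the other direction). For Acta2 the difference was 0.78 (SE 0.40, adjusted p = 0.305), with overlapping groups. For Myl9 it was 0.53 (SE 0.35, adjusted p = 0.425), with no overlap over only 2 early life samples. In limma's fit 0 of 6 were called, where 0.132% of 18242 genes were, and Tagln alone reached an unadjusted p under 0.05, as 19.4% of all genes did. By direction, 0 were called higher, where 0.0603% of all genes were, and 0 lower, where 0.0713% were. The 3 contractile genes had a median of 0.78, against 0.03 over all genes.

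Peripubertal and control samples lay closer together. Tagln differed by -0.30 (SE 0.33), Acta2 by -0.18 (SE 0.40) and Myl9 by 0.02 (SE 0.29), all with a limma adjusted p of 0.9996. The intervals on the fold scale ran from 0.494 to 1.34 for Tagln, from 0.476 to 1.63 for Acta2 and from 0.651 to 1.59 for Myl9, so a lower or a higher level within those bounds is not shut out by these samples. Of the 7 tested genes 0 were called and 0 reached an unadjusted p under 0.05, where 0.0213% of 18771 genes were called and 4.69% reached that p. All 7 had overlapping groups, while 3.71% of all genes had every peripubertal sample above the controls and 5.54% had every one below. The early life and peripubertal comparisons share their control samples.

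**Figure D2:**
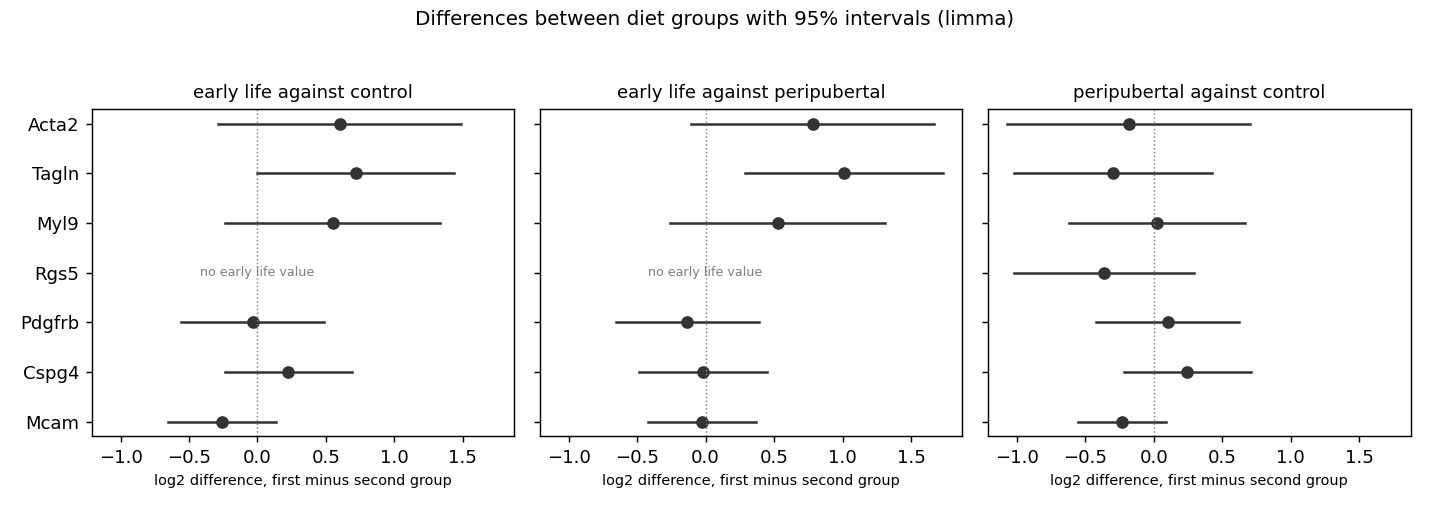
Log2 difference between diet groups (horizontal axes, first minus second group) for the tested pericyte and smooth muscle genes, with 95% intervals from limma before any adjustment. Acta2, Tagln and Myl9 lie to the right of 0 where early life is the first group, and the Tagln interval against peripubertal, from 0.29 to 1.73, is the only one that does not cover 0.

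The sharpest contrast between single animals was in Cnn1, basic calponin, which damps myosin activity in differentiated smooth muscle. It read 8.58 in early life 1 and 9.17 in early life 4, both well above background. It read 6.95 and 6.75 in early life 2 and 3, from 6.85 to 6.94 in control and from 6.75 to 6.84 in peripubertal samples, none of them well above background. These 10 readings are background. The early life mean was 1.84-fold above the control level and 2.01-fold above the peripubertal level. For this, each sample of the dimmer group counted as the higher of its own reading and the lowest level well above background in its channel. Early life 2 and 3, also dim, enter as measured, so neither fold is a strict lower bound. The difference is carried by 2 of 4 early life samples. Cnn1 did not pass the filter on dim probes and was not tested. The 3 dim spots near the Cnn1 spot deviated by 0.90 in early life 1 and by -0.17 in early life 4. The part of these deviations in the 2 readings was not tested.

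Myh11, the smooth muscle myosin heavy chain, was well above background in control 3 (6.88) and in peripubertal 1 (7.84), where dim nearby spots deviated by 0.01. The other samples ran from 6.64 to 7.31 and were not well above background. Peripubertal 1, the highest in Myh11, was the lowest of its group in Acta2 and Tagln. Des, the muscle intermediate filament protein, ran from 6.81 to 7.08 over all 12 samples, from 7 to 10 usable spots each, with no sample well above background.

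Acta2 covered a log2 range of 1.35 among early life animals, 1.08 among controls and 0.41 among peripubertal animals, and the first 2 exceed its largest difference between group means.

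Of the 4 pericyte genes, Rgs5 had no early life value, so 3 were tested in the early life comparisons and 4 in peripubertal against control. None of the tested genes passed in limma's fit. Their signs were mixed against control, with a median of -0.03 over 3 genes in early life and -0.07 over 4 in peripubertal samples. Rgs5, a regulator of G protein signalling enriched in pericytes, read 11.10, 9.99, 10.49 and 10.15 in control 1 to 4 and 10.07, 10.38, 10.06 and 9.76 in peripubertal 1 to 4. Control 1 was the highest and peripubertal 4 the lowest, with the other samples overlapping. The log2 difference was -0.36 (SE 0.29, limma adjusted p = 0.9996). All 4 early life spots were marked as outliers and would read 10.47, 10.17, 10.44 and 10.25, inside the control range.

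Pdgfrb, the receptor through which endothelial PDGF-B recruits pericytes, read 10.77, 10.23, 10.06 and 10.73 in early life 1 to 4. It read 10.82, 10.58, 10.27 and 10.25 in control and 10.43, 10.58, 10.57 and 10.74 in peripubertal samples. The 3 groups overlapped throughout, with means of 10.45 ± 0.36 (SD, n = 4), 10.48 ± 0.27 and 10.58 ± 0.13. Differences were -0.03 (SE 0.24) for early life and 0.10 (SE 0.24) for peripubertal against control, and -0.14 (SE 0.24) between the deficient groups. The 95% interval of the first ran from -0.56 to 0.49.

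Cspg4, the NG2 proteoglycan of pericytes and of oligodendrocyte precursors, read 8.07, 7.93, 7.62 and 8.27 in early life and 8.13, 7.61, 7.69 and 7.54 in control. Peripubertal samples read 7.93, 7.95, 8.09 and 7.99. In control the first animal stood well above the other 3, and the peripubertal values lay between them. The log2 difference from control was 0.23 (SE 0.21, limma adjusted p = 0.620) in early life and 0.25 (SE 0.21, adjusted p = 0.9996) in peripubertal samples. Of the 5 oligodendrocyte precursor markers on the array, Olig2 and Gpr17 were well above background in no channel. The other 3, Pdgfra, Sox10 and Olig1, were in the fit, and all were positive against control, with a median of 0.22 in early life and 0.28 in peripubertal samples. Pdgfra was the highest in early life at 0.63 (SE 0.25, adjusted p = 0.257), and the part of these cells in the Cspg4 level was not tested.

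Mcam, the adhesion molecule CD146 shared by pericytes and endothelium, gave 2 probes that do not read alike. The repeat probe read 13.05, 13.55, 13.34 and 13.62 in control, 12.84 and 13.42 in early life 1 and 2, and 13.02, 13.35, 13.08 and 13.17 in peripubertal samples. The dim probe ran from 6.85 to 7.38 and was well above background in 4 of 12 channels. A TG run of 5 units or more occurs in 151 probes (0.383% of all), and 87.4% of these were well above background in all 12 channels, against 47.2% of all probes. Whether the repeat probe binds transcripts other than Mcam was not tested, so its level may not be that of Mcam alone. With the repeat probe, Mcam differed from control by -0.26 in early life (SE 0.18, n = 2 against 4, limma adjusted p = 0.481) and by -0.23 in peripubertal samples (SE 0.14, adjusted p = 0.9996). With the mean of both probes the early life difference was -1.76 (adjusted p = 0.290), because early life 3 and 4 then rest on the dim probe alone. The dim probe was not well above background in any early life sample, so no difference is given for it.

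The wider contractile programme held differences in both directions in early life. Of 19 other contractile genes on the array, 15 were in the fit and 0 were called in any comparison. Unadjusted p-values were under 0.05 for 4 of them in early life against control and 5 against peripubertal samples, where 16.2% and 19.4% of all genes had one. Synpo2, an actin-binding protein of smooth muscle dense bodies and striated muscle, read 10.16, 9.76, 9.05 and 9.40 in early life, above all control (8.08 to 8.71) and all peripubertal samples (8.45 to 8.96). It differed by 1.12 from control (SE 0.27, limma adjusted p = 0.143). Of all genes, 7.96% had every early life sample above the controls, and 12.4% had every one above the peripubertal samples. Ppp1r14a, an inhibitor of myosin phosphatase that keeps smooth muscle contracted, read 11.14, 10.75, 10.81 and 10.99 in early life with all peripubertal samples lower, at a mean of 9.82. The groups do not overlap, as was the case in that direction for 12.4% of all genes, and the difference was 1.11 (SE 0.20, adjusted p = 0.0572). Synpo2 and Ppp1r14a were each named as the largest positive difference of the 15 genes in their comparison.

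Tpm1, a tropomyosin that winds along actin filaments, was lower in early life but did not pass the test. It read 9.93 and 10.05 in early life 1 and 2, from 11.12 to 11.59 in control, and 11.70 and 11.38 in peripubertal 1 and 2. It had no usable spot in the other deficient samples. From control it differed by -1.34 (SE 0.21, limma adjusted p = 0.0896), and from peripubertal samples by -1.55 (SE 0.24, adjusted p = 0.0641), the latter over 2 samples a group. In peripubertal samples against control the extremes of the list were Tpm2 at -0.50 (SE 0.33) and non-muscle myosin Myh10 at 0.34 (SE 0.21), both with an adjusted p of 0.9996. The medians of the 15 genes were -0.04, -0.01 and 0.04 in the order early life and peripubertal against control, then early life against peripubertal, close to those of all genes. Lmod1, Pln and Kcnmb1, further genes of mature smooth muscle, were well above background in no channel.

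Of the genes that control this programme, 15 were on the array and 13 in the fit, with 0 called in any comparison. In early life, 2 of 12 tested against control and 6 of 12 against peripubertal samples had an unadjusted p under 0.05. Of all genes, 16.2% and 19.4% had one. Myocd, the SRF cofactor of mature smooth muscle, was well above background in no channel. The largest differences were in Klf4, a repressor of smooth muscle genes, and in Tgfb3, a TGF-beta ligand. Klf4 differed by 0.78 in early life against control (SE 0.44, limma adjusted p = 0.394), by 1.09 against peripubertal samples (SE 0.44, adjusted p = 0.215) and by -0.32 between peripubertal and control (SE 0.44). Tgfb3 differed by -0.94 (SE 0.28, adjusted p = 0.184), -1.33 (SE 0.28, adjusted p = 0.0852) and 0.39 (SE 0.28) in the same order.

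Among 25 other pericyte genes, 22 were in the fit and 0 were called. An unadjusted p was under 0.05 for 3 in early life against control, 2 in peripubertal against control and 4 between the deficient groups. Of all genes, 16.2%, 4.69% and 19.4% had one in that order. The median of the 22 was -0.07 when early life was set against control, 0.12 when peripubertal samples were, and -0.24 between the deficient groups. There, 16 of the 22 were lower in early life, while 53.9% of all genes were higher. Rgs4, a relative of Rgs5, was the highest against control in early life at 0.77 (SE 0.28, limma adjusted p = 0.245). Ednra, the endothelin receptor of vascular smooth muscle, was the lowest in early life with -0.71 set against control (SE 0.33, adjusted p = 0.317) and -1.10 set against peripubertal samples (SE 0.33, adjusted p = 0.141). Angpt1, the pericyte ligand of endothelial Tie2, differed by 0.77 between the deficient groups (SE 0.38, adjusted p = 0.289) and by -0.17 in peripubertal samples against control (SE 0.38). Kcnj8, a channel subunit of pericytes, differed there by 0.45 (SE 0.15, adjusted p = 0.831). Tbx18 and Atp13a5 were well above background in no channel.

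The PDGF system had 12 of 13 genes in the fit and 0 called. An unadjusted p was under 0.05 for 3 of 11 tested in early life against control, where 16.2% of all genes had one. Between the deficient groups this held for 1 of 11, against 19.4% of all genes. Pdgfb, the endothelial ligand of Pdgfrb, differed by -0.27 in early life against control (SE 0.23, limma adjusted p = 0.573). Pdgfc, a ligand of Pdgfra, differed by 0.65 in early life (SE 0.21, adjusted p = 0.206) and by 0.31 in peripubertal samples (SE 0.21), both against control. Plcg1, a phospholipase recruited to the active receptor, differed by -0.41 between early life and peripubertal samples (SE 0.12, adjusted p = 0.134). Pik3r1, the regulatory subunit of PI3 kinase, differed by 0.47 there (SE 0.33) and by -0.37 in peripubertal samples against control (SE 0.33).

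Markers of neighbouring cells varied over the same animals. The 8 fibroblast markers with all values averaged deviations of 0.42, 0.23, -0.43 and 0.39 from their 12-sample mean in early life 1 to 4, on the log2 scale, so that early life 3 was low as it was for Acta2. Control samples ran from -0.31 to 0.17 and peripubertal samples from -0.17 to 0.15. The 7 markers of folliculostellate cells and posterior lobe glia averaged 0.35, 0.15, -0.20 and 0.49 in early life 1 to 4. The last value rests largely on the glial gene S100b, which read 11.24 in early life 4 and from 7.52 to 8.90 in the other 11 samples. The 13 endothelial markers averaged 0.16, -0.25, -0.52 and 0.07, within or below the control range of -0.20 to 0.31. Within early life, samples 1 and 4 were again the highest and 3 the lowest. The 19 other pericyte genes with all values had the same order, at 0.08, -0.11, -0.34 and -0.01. Markers of oligodendrocyte precursors, hormone cells and cardiac muscle did not have samples 1 and 4 as the 2 highest. Of the 8 probes of the set with 4 early life values, 5 had samples 1 and 4 as the 2 highest. Among these 5, Myh11 was well above background in no early life sample and Cnn1 in 2. How often this order occurs over all genes was not counted, so the 5 are not a result about the set. Other contractile genes averaged 0.36, 0.17, 0.04 and 0.33 in early life, from -0.23 to 0.02 in control and from -0.17 to -0.11 in peripubertal samples. The part of cell content in the differences of Acta2, Cnn1 and Tagln was not tested. Of 12 fibroblast markers 8 were well above background in all channels and Dpt in none. Of 14 endothelial markers 13 were so in all channels.

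Of the single genes of these lists, 0 of 57 to 59 tested were called per comparison over 8 lists. Red cell genes went beyond the range of the tested genes of the set, with a median of -2.02 between the deficient groups. Unadjusted p-values were under 0.05 for 8 of 57 in early life against control, where 16.2% of all genes had one, and for 12 of 57 between the deficient groups, where 19.4% did. In the first of these, the highest and lowest endothelial genes were Kdr at 0.38 and Esam at -0.60, and those of fibroblasts were Islr at 0.72 and Col1a2 at -0.38. Among glial markers they were S100b at 0.97 (SE 0.72) and Sox2 at -0.26, and among hormone cell markers Tshb at 0.28 and Pou1f1 at -0.47. All 5 red cell genes were negative, with the haem enzyme Alas2 lowest at -1.63 (SE 0.64). Of 12 skeletal muscle genes 7 were in the fit, with Tnni2 highest at 0.73 (SE 0.26, limma adjusted p = 0.229) and Atp2a1 lowest at -0.64 (SE 0.29, adjusted p = 0.308). Of 7 cardiac genes 4 were in the fit, with Myh6 at 0.60 (SE 0.35, adjusted p = 0.401) and Myl4 at -0.76 (SE 0.23, adjusted p = 0.190). Ckm and Mylpf, and the cardiac genes Actc1, Tnnt2 and Myl7, were well above background in no channel. Red cell markers averaged 0.00, -1.25, -1.27 and -1.30 in early life 1 to 4. Peripubertal samples ran from 0.30 to 1.81 in them. Control 1 to 4 averaged 1.19, 0.70, -0.94 and -0.67. The part of red cell content in the levels of Acta2 was not tested.

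**Figure D3:**
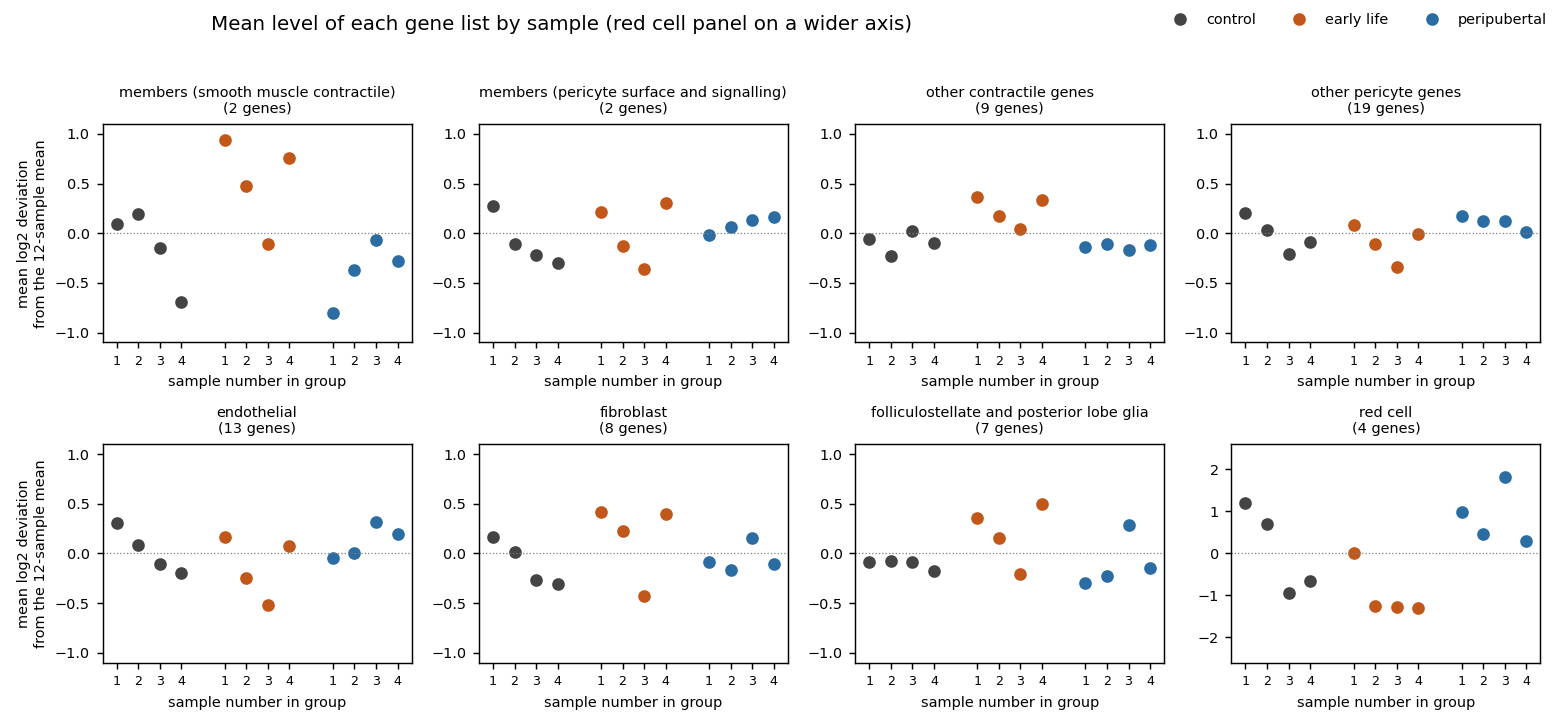
Mean log2 deviation from the 12-sample mean (vertical axes) of the genes of each list with all 12 values, by sample (horizontal axes, numbered within diet group). In every list shown except red cell markers, early life samples 1 and 4 are the highest of their group and sample 3 the lowest. Of the lists not shown, the skeletal muscle, PDGF and SRF lists have this order too. Oligodendrocyte precursor, hormone cell and cardiac muscle markers do not have samples 1 and 4 as the highest. Early life 3 had the lowest share of spots well above background, 50.6%, and the part of this in the order was not tested. Red cell markers, on a wider axis, follow another order. The glial value of sample 4 rests largely on S100b.

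The genes whose levels followed Acta2 most closely over the 12 samples, among 10714 genes with all values, were Pxt1 (Pearson r = 0.92), the ghrelin receptor Ghsr (0.91), the nitric oxide synthase adaptor Nos1ap (0.89), the LIM protein Lmcd1 (0.86) and the matrix proteoglycan lumican, Lum (0.85). Tagln ranked 221 of these genes with r = 0.72, Pdgfrb 1296 with r = 0.54 and Cspg4 1642 with r = 0.50. Pxt1 and Ghsr were at low levels, from 7.31 to 7.86 and from 7.18 to 8.06. In early life 3 both read below 7.76, the lowest level well above background in that channel. Rgs5 had no early life value, so its likeness was taken over the 8 control and peripubertal samples and 10715 genes. The closest were Ppp1r10, Igf2, Klhl18, Rab13 and Kpna4 (r = 0.92 each), while Tagln reached 0.40, Cspg4 0.28, Pdgfrb 0.19 and Acta2 0.08. Igf2 was at a low level over these 8 samples, from 6.93 to 7.37. The correlations describe samples that share arrays, dyes and groups, and the closest genes were picked as the highest of all those compared. Rgs5 and Acta2 thus followed different orders of samples.

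The 4 control columns of the authors' value table match no scanned channel, and in them these genes were at other levels. When table columns and scanned channels were centred on the 28373 spots present in all of them, Cnn1 read from 1.95 to 3.48 in the 4 columns and from -4.21 to -2.94 in the 4 scanned control channels. Acta2 read from 4.75 to 6.33 against 0.00 to 1.18, and Myl9 from 4.28 to 5.67 against 1.45 to 2.97. Rgs5, with -0.43 to 0.67 against 0.63 to 1.73, and the Mcam repeat probe, with 3.88 to 4.88 against 3.78 to 4.59, overlapped between the 2 sets. The lactotroph hormone Prl read from -4.62 to -3.96 there and from 7.60 to 9.06 in the scanned controls, which goes against the pituitary label of these columns. Of the 31185 spots with a value in all 8, 23.8% had all 4 columns above all 4 scanned control channels and 24.5% had them below. The columns entered no comparison between diets.

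**Figure D4:**
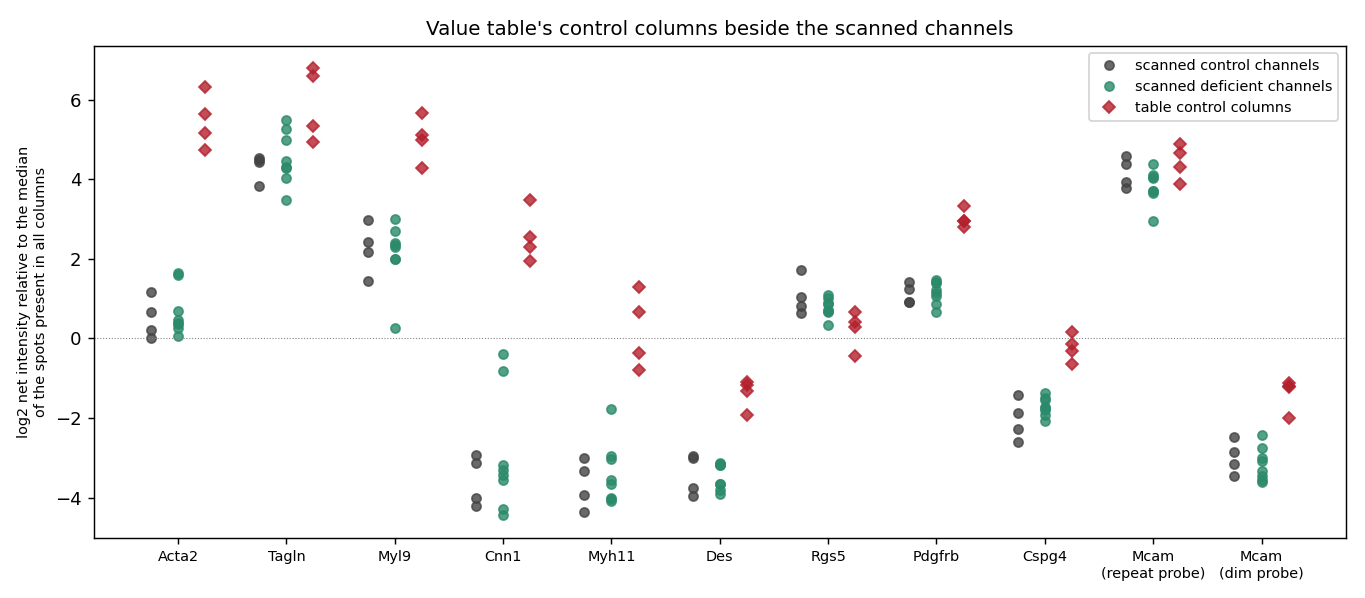
Log2 net intensity relative to the median of the spots present in all columns (vertical axis) for each probe (horizontal axis), in the 4 scanned control channels, the 8 scanned deficient channels and the 4 control columns of the value table. The table's control columns lie above all scanned control channels for 9 of the 11 probes, and not for Rgs5 or the Mcam repeat probe. Of the 31185 spots with a value in all 8, 23.8% lay above in this way and 24.5% below.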

How the data were processed

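The deposited scanner files give raw intensity per spot, from Agilent Feature Extraction per the file headers, with background intensity and quality marks. The deposited value table gives log2 values centred on each column's median. Raw intensity was corrected by normexp (offset 50), dye bias was removed by loess, and arrays were scaled by Aquantile in limma. Marked spots took part in this scaling and were then left out. Spots of a probe were averaged, probes well above background in at least 4 of 12 channels were kept, and the brightest probe stood for its gene, which gave 19090 genes. limma's model held terms for group and dye, with the array taken as a random block (correlation 0.342). Tests had 2 sides, with Benjamini-Hochberg adjustment over all genes and a threshold of 0.05. The number of arrays limits the precision. The 95% intervals are unadjusted. Only the model fit was tested on simulated log2 values, and not the steps before it. The changes planted there were larger than the differences of these genes.

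The genes, the lists and the naming rule were chosen with earlier results of these data known. The rule names every gene of the set with all its probes, from each of the 4 lists of contractile, control, pericyte and PDGF genes the largest positive and negative difference and every gene past the threshold, and the 5 genes most like Acta2 and Rgs5. Markers of other cells were named after their values were seen. Alternatives were other offsets, scalings, filters, spot masks, probe rules and models, the value table, and leaving out each sample. Analyses used R 4.3.3 and limma 3.58.1.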

Additional observations from a re-analysis of the deposited data

Results flagged for a closer look

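In 3 of the 30 sets of 4 samples compared over these probes, 1 sample lay far from the other 3. The cut-off used flags about 1 in 20 sets of independent values. These sets reuse the same 12 samples, which share arrays and dyes, so that rate is no measure for them. For Myh11, control 4 lay lowest, with a gap of 0.841 of the group's range, and peripubertal 1 lay highest, with 0.848. For Des, control 1 lay highest, with 0.861. Of these 3 readings, that of peripubertal 1 for Myh11 was well above background and the other 2 were not.

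The 4 control columns of the authors' value table match no scanned channel. They gave higher levels than all 4 scanned control channels for 9 of the 11 probes. Of the 31185 spots with a value in all 8, 23.8% lay above in this way and 24.5% below. On the common centring, the medians of the 4 columns were 5.41 for Acta2, 5.97 for Tagln, 5.06 for Myl9, 2.43 for Cnn1, 0.15 for Myh11 and -1.24 for Des. For the pericyte genes they were 2.96 for Pdgfrb, -0.23 for Cspg4 and -1.21 for the Mcam dim probe. The scanned controls had medians of 0.45, 4.46, 2.30, -3.57, -3.63 and -3.38, and of 1.08, -2.08 and -3.01, in the same order. What these columns were measured on was not tested.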

How the results depend on the processing

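Acta2 and Tagln kept the direction of both early life differences under every alternative run. Against control, Acta2 ran from 0.34 to 0.98 and Tagln from 0.48 to 1.09. Between the deficient groups, Acta2 ran from 0.52 to 1.08 and Tagln from 0.79 to 1.25, with adjusted p from 0.0583 to 0.557. One setting called a member. With marked spots taken out before scaling, an alternative chosen after seeing the data, Tagln against control reached 1.09 (limma adjusted p = 0.0492, from 0.0492 to 0.617 over its alternatives), so 1 member was called. The median of all genes was then 0.31 and not 0.03, and 3058 genes were called against control and 315 between the deficient groups, with 0 for peripubertal against control. That scaling also turned Pdgfrb to 0.36 and Mcam to 0.0992 against control, and Pdgfrb to 0.0698, Cspg4 to 0.0965 and Mcam to 0.198 between the deficient groups.

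Counts over all genes moved with the settings, from 18 called in early life against control, 4 in peripubertal against control and 24 between the deficient groups. In that order they were 22, 0 and 56 with offset 16, 35, 0 and 24 with the software's processed signals, and 21, 0 and 16 with quantile scaling. They were 4, 0 and 6 with median centring, 16, 0 and 16 with no filter, and 0, 0 and 1 with probes well above background in all 12 channels. They were 13, 0 and 7 with marked spots kept, 125, 20 and 151 when a gene's probes were averaged (Mcam then being -1.76 against control and -1.59 between the deficient groups), and 20, 5 and 44 with each probe on its own. They were 11, 10 and 66 with only the 2 groups compared, and 13, 0 and 39 with array means. The value table called 97 between the deficient groups. Where limma called 0 genes for peripubertal against control under these settings, 571 to 1642 had an unadjusted p under 0.05, and where it called 0 for early life against control, 2312 had.

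Median centring moved the median of all genes to 0.17 and 0.14 against control, and turned Pdgfrb to 0.17 and Mcam to 0.0596 against control and Mcam to 0.065 between the deficient groups. Keeping marked spots turned Myl9 to -0.0592 against control and -0.0827 between the deficient groups. In the value table Myl9 was -0.28 and Cspg4 0.0862 between the deficient groups. The cause of these turns was not tested.

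With the replicate block, 10, 0 and 6 genes were called, 902 having an unadjusted p under 0.05 for peripubertal against control, and Mcam between the deficient groups was 0.0052. The numbers did not pair the samples, since deviations of same-numbered samples correlated at -0.29 to 0.06 and no sample correlated best with its own number.

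Leaving out 1 sample gave 6 to 280, 0 to 3 and 6 to 751 genes called, with 0 members called throughout. The counts were 280 and 751 without early life 3, and 227 and 242 without control 3. Differences that turned with 1 sample left out ran from -0.175 to 0.126 for Pdgfrb in early life against control and from -0.1475 to 0.177 for Myl9 in peripubertal against control. Between the deficient groups they ran from -0.277 to 0.0236 for Pdgfrb, from -0.1785 to 0.143 for Cspg4 and from -0.167 to 0.116 for Mcam. Signal over background limits Des, Cnn1, Myh11 and the Mcam dim probe. No difference is given for them except the folds of Cnn1, which are not strict bounds.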
